A study of Mus musculus with 16 samples.

Results

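The BCL2 family controls whether the outer mitochondrial membrane becomes permeable in a dying cell, and 10 of its genes were followed here. They were the anti-apoptotic genes Bcl2, Bcl2l1 (which encodes BCL-XL), Mcl1, Bcl2a1b and Bcl2a1d (2 copies of the gene for A1), the BH3-only genes Bcl2l11 (BIM), Bbc3 (PUMA) and Pmaip1 (NOXA), and the effector genes Bax and Bak1. They were chosen by name, and each symbol matched 1 row of the table of read counts, 10 of 54532 genes. All 10 passed the filter on low counts in each comparison.

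RNA was sequenced from 16 samples of TCF1+CD8+ T cells made by repeated activation, a model of the stem-like T cells that sustain responses to tumours. Naive CD8+ T cells from spleens of C57BL/6J mice had been activated repeatedly over 4 days with anti-CD3/CD28 beads, which trigger the T cell receptor and its costimulator, and with low-dose IL-2. The cells then stayed untreated or received prostaglandin E2 (PGE2) at 100 ng/ml for 1 h, and were kept for a further 4 h in IL-2 (85 U/ml) alone, called unstimulated, or in IL-2 plus fresh beads at 1 bead per cell, called stimulated. This gave unstimulated untreated, unstimulated PGE2, stimulated untreated and stimulated PGE2 cells, with 4 replicates each. All 4 groups therefore share IL-2, the C57BL/6J background and an earlier activation, and the unstimulated cells are not resting naive cells. The labels give no age, and they do not say whether replicates came from separate mice, so p-values measure the spread between these samples, which may be technical.

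The samples held 22678254 to 42950763 counts. All 7 genes of the CD8 T cell list (Cd8a, Cd8b1, Cd3d, Cd3e, Cd3g, Cd247 and Tcf7) had counts in each group, and their summed level was 2682 to 4744 CPM (the usual counts-per-million scale, with library sizes scaled by TMM). Summed markers reached 21.0 CPM for B cells, 6.56 for myeloid cells, 40.1 for CD4 T cells and 0.820 for erythroid cells. The 3 genes of the NK list moved with the groups, from 5.54 to 24.1 CPM in unstimulated samples to 36.5 to 178 CPM in stimulated ones, and nearly all of it was Eomes, which CD8 T cells also express, while the defining gene Ncr1 was at 0 in each sample. Tcf7, which encodes TCF1, had 912 to 1539 CPM in unstimulated samples and 289 to 469 CPM in stimulated ones. Of the CD8 list, Cd8a and Cd8b1 fell with PGE2 in both states. On the log2 scale Cd8a fell by 0.44 and 0.42 and Cd8b1 by 0.34 and 0.25, without and with beads. Tcf7 rose by 0.41 (SE 0.10, adjusted p = 0.032, edgeR) with PGE2 in stimulated cells. PGE2 thus changed 2 of the 7 without beads and 3 with them, where 28.4% and 9.84% of all genes were called. With stimulation all 7 were called, 1 higher and 6 lower, both without and with PGE2. Of all genes, 66.5% and 64.2% were called there. Eomes fell by 1.12 with PGE2 in unstimulated cells. The part of these markers in the results was not tested. In bulk RNA, fewer cells of a type and less RNA per cell cannot be told apart.

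Proteins of this family meet at the outer mitochondrial membrane. BH3-only proteins carry death signals and bind the anti-apoptotic proteins, and effector proteins that are no longer held in check form pores through which cytochrome c leaves to activate caspases. In T cells, BIM removes cells that lose cytokine support, MCL1 and BCL2 keep lymphocytes alive, and BCL-XL and A1 are known as genes induced by antigen receptor signals. MCL1 and BIM are also regulated as proteins, which RNA does not show.

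Stimulation raised Bcl2l1, Bcl2a1b and Bcl2a1d in both treatment states, by 7.23-fold, 9.34-fold and 8.69-fold without PGE2 and by 9.16-fold, 7.68-fold and 9.71-fold with it. It lowered the BH3-only genes Bcl2l11 and Bbc3, and left Mcl1 within 1.1-fold of its unstimulated level. PGE2 raised Bcl2l11 in both states, by 1.51-fold without beads and 1.5-fold with them, and lowered Bax to 0.802 and 0.839 of its untreated level. In unstimulated cells PGE2 also lowered Bcl2l1, Bcl2 and Bbc3. With same-numbered replicates as pairs, Bcl2l1 and Bbc3 passed as lower in stimulated cells as well, and Pmaip1 as lower in both states. Mcl1 and Bcl2a1d then passed as higher in both states. Fold changes and their tests come from edgeR's quasi-likelihood test, with p-values adjusted over all genes tested by the Benjamini-Hochberg method, and the call was an adjusted p under 0.05.

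**Figure D1:**
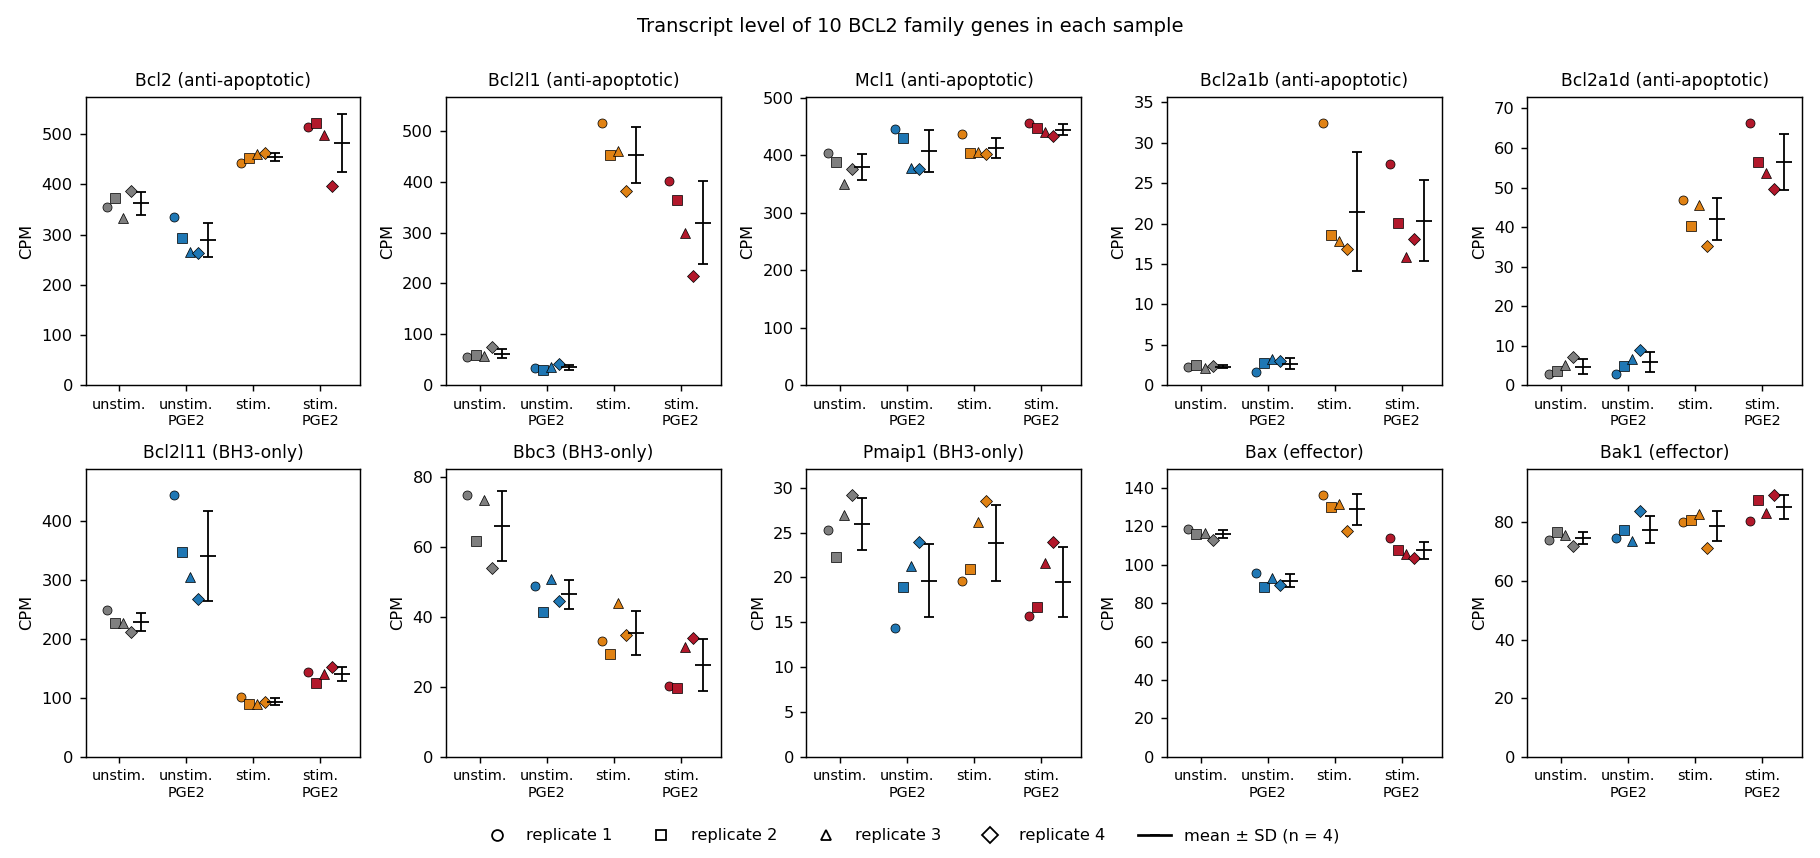
Level of each of the 10 genes in CPM (y axis, from 0) in the 4 groups (x axis, unstim. for unstimulated and stim. for stimulated). Symbols are replicates 1 to 4 and the bar is the mean ± SD (n = 4). Bcl2l1 sits at 30.6 to 75.7 CPM in the 8 unstimulated samples and at 214 to 516 CPM in the 8 stimulated ones, whereas Mcl1 stays between 350 and 456 CPM in all 16.

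Among the anti-apoptotic genes, Bcl2l1 (chr2:152780668-152831728, minus strand, GRCm38) had the widest span in CPM. In unstimulated untreated cells its 4 replicates had 54.6, 59.97, 57.9 and 75.7 CPM. In unstimulated PGE2 cells they had 32.8, 30.6, 35.5 and 42.4 CPM. The PGE2 samples lay below all untreated samples, and the log2 fold change was -0.79 (SE 0.12, adjusted p = 0.0006, edgeR). Stimulated untreated cells had 516, 453, 460 and 382 CPM. Stimulated PGE2 cells had 402, 364, 299 and 214 CPM. Each stimulated PGE2 replicate was lower than the untreated replicate of its number, but the ranges overlapped. This difference, -0.49 on the log2 scale (SE 0.17), did not pass in edgeR's unpaired fit (adjusted p = 0.1). It passed with the replicate number as a block (-0.52, SE 0.079, adjusted p = 0.00054), in DESeq2 (-0.51, adjusted p = 0.042) and in 1 edgeR fit of all 16 samples (adjusted p = 0.043). Those were the only 3 of 10 alternative fits that passed, and the adjusted p reached 0.26 in the others. Of the 8 edgeR fits that left out a sample, 1 passed. Stimulation raised Bcl2l1 by 2.85 (SE 0.13, adjusted p = 9.5e-09) without PGE2 and by 3.20 (SE 0.20, adjusted p = 1.2e-06) with it, both log2 fold changes.

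Bcl2 (chr1:106538178-106714274, minus strand), the founding member, was already abundant before stimulation, with 355, 373, 334 and 387 CPM in unstimulated untreated cells. With PGE2 these cells had 335, 294, 264 and 263 CPM. Each PGE2 replicate was lower than its untreated counterpart, while the highest PGE2 value lay just above the lowest untreated one. Bcl2 fell by 0.31 on the log2 scale (SE 0.077, adjusted p = 0.012, edgeR). Without unstimulated untreated replicate 2 the adjusted p was 0.056. Stimulated untreated cells had 443, 452, 461 and 462 CPM, and stimulated PGE2 cells had 513, 522, 498 and 397 CPM. Here PGE2 samples stood on both sides of the untreated ones, and the log2 fold change was 0.09 (SE 0.089, adjusted p = 0.52). Stimulation raised Bcl2 by 0.31 (SE 0.067, adjusted p = 0.0012) without PGE2 and by 0.76 (SE 0.11, adjusted p = 0.00011) with it on the log2 scale. The test of the difference between the 2 PGE2 responses gave 0.41 (SE 0.13, adjusted p = 0.2, edgeR, all 16 samples) and 0.080 as the adjusted p with the block. It passed (adjusted p = 0.034) when stimulated PGE2 replicate 4, the lowest of its group, was left out.

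Mcl1 (chr3:95658788-95663176, plus strand), whose protein is short-lived and holds BIM, NOXA and BAK, had the highest level per length in each group. Its CPM was 404, 388, 350 and 376 in unstimulated untreated cells and 446, 431, 378 and 376 in unstimulated PGE2 cells. In stimulated untreated cells it was 438, 403, 405 and 402 CPM, and in stimulated PGE2 cells 456, 447, 440 and 434 CPM. The groups overlapped in each comparison, although all 4 PGE2 replicates exceeded their untreated counterparts in both states. Log2 fold changes of Mcl1 were 0.12 (SE 0.068, adjusted p = 0.21) and 0.12 (SE 0.058, adjusted p = 0.23) for PGE2 without and with beads in edgeR's unpaired fit. Both passed with the replicate number as a block, with adjusted p of 0.014 and 0.044, at the same size. For stimulation they were 0.11 (SE 0.071, adjusted p = 0.2) and 0.14 (SE 0.072, adjusted p = 0.11).

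Bcl2a1b (chr9:89199209-89207827, plus strand) and Bcl2a1d (chr9:88723285-88731914, minus strand) are near-identical copies of the gene for A1, which binds BIM and other BH3-only proteins. Bcl2a1b and Bcl2a1d differ at 6 of 519 coding bases in GENCODE release M21, an identity of 98.8%. Another copy with counts, Bcl2a1a (chr9:88956900-88962419, plus strand), is 98.7% identical to Bcl2a1d and 97.9% identical to Bcl2a1b. The first 60 coding bases are shown because they hold 6 of the 12 positions at which the 3 copies differ, in capitals, and so are among the few bases that tell their reads apart.
Bcl2a1a: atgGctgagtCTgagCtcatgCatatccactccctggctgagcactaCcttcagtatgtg
Bcl2a1b: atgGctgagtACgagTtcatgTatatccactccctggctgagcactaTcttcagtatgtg
Bcl2a1d: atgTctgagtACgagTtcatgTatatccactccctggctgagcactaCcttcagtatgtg
Of all 100-base stretches of their transcripts, 56.8% of Bcl2a1b and 54.7% of Bcl2a1d also occur in another gene. Bcl2a1b further shares 401 exon bases, 49.1% of its exons, with Gm29094 on the same strand. How the counting treated reads that fit several genes is not given in the sources used here, so the split between the copies is uncertain and their sum is given as well.

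Bcl2a1b had 2.20, 2.50, 2.11 and 2.35 CPM in unstimulated untreated cells and 1.65, 2.70, 3.22 and 3.03 CPM in unstimulated PGE2 cells. Stimulated untreated cells had 32.4, 18.6, 17.9 and 16.9 CPM, and stimulated PGE2 cells 27.4, 20.1, 15.9 and 18.1 CPM. All stimulated samples lay above all unstimulated ones, and PGE2 and untreated samples overlapped in both states. The log2 fold change with stimulation was 3.22 (SE 0.22, adjusted p = 1e-07) without PGE2 and 2.94 (SE 0.23, adjusted p = 2.6e-06) with it. The PGE2 effects of 0.24 (SE 0.21) and -0.07 (SE 0.23) did not pass, with adjusted p of 0.44 and 0.86.

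Bcl2a1d had 2.91, 3.63, 5.12 and 7.16 CPM in unstimulated untreated cells and 2.81, 4.92, 6.69 and 8.80 CPM in unstimulated PGE2 cells. Stimulated untreated cells had 46.8, 40.3, 45.5 and 35.2 CPM, and stimulated PGE2 cells 66.3, 56.3, 53.8 and 49.7 CPM. In stimulated cells the PGE2 samples lay above all untreated ones, and Bcl2a1d rose by 0.44 on the log2 scale (SE 0.11, adjusted p = 0.036, edgeR). That call was lost (adjusted p = 0.24) in 1 fit of all 16 samples, and in 6 of the 8 fits that left out a sample, with adjusted p up to 0.11. In unstimulated cells the difference was 0.33 (SE 0.34, adjusted p = 0.53), and the adjusted p was 0.025 with the replicate block. Stimulation raised Bcl2a1d by 3.12 (SE 0.22, adjusted p = 1.1e-07) and, with PGE2, by 3.28 (SE 0.28, adjusted p = 3.5e-06).

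Summed over Bcl2a1a, Bcl2a1b and Bcl2a1d, the level rose from 5.11 to 9.54 CPM in unstimulated untreated samples to 52.2 to 79.95 CPM in stimulated untreated ones, a log2 fold change of 3.15 (SE 0.18, adjusted p = 2.8e-08, edgeR). The summed difference of stimulated PGE2 from stimulated untreated cells was 0.29 (SE 0.14, adjusted p = 0.2), and it passed with the replicate block (adjusted p = 0.0012). In unstimulated cells it was 0.30 (SE 0.28, adjusted p = 0.46), and it also passed with the block (adjusted p = 0.030). The sum was tested after the values of the copies had been seen.

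Bcl2l11 (chr2:128126038-128162547, plus strand) was the only one of the 3 BH3-only members called in each of the 4 comparisons by edgeR's unpaired fit. Its 4 replicates had 249, 227, 228 and 212 CPM in unstimulated untreated cells and 445, 347, 306 and 267 CPM with PGE2. In stimulated untreated cells they had 102, 90.3, 89.97 and 93.5 CPM, and 143.5, 124, 140.5 and 153 CPM with PGE2. None of the groups overlapped in any of the 4 comparisons. PGE2 raised Bcl2l11 by 0.59 on the log2 scale in unstimulated cells (SE 0.12, adjusted p = 0.0037) and by 0.59 in stimulated cells (SE 0.075, adjusted p = 0.0014), and the test of the difference between these gave 0.00 (SE 0.16, adjusted p = 1). Stimulation lowered it, with log2 fold changes of -1.30 (SE 0.075, adjusted p = 3.4e-08) without PGE2 and -1.26 (SE 0.13, adjusted p = 1.3e-05) with PGE2. These 4 calls held in each alternative fit and without any single sample. Stimulated PGE2 cells still had less Bcl2l11 than unstimulated untreated cells, at most 153 CPM against at least 212 CPM.

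Bbc3 (chr7:16308393-16318205, plus strand), a target of p53 and of FOXO factors, had 75.0, 61.7, 73.6 and 54.0 CPM in unstimulated untreated cells and 49.0, 41.4, 50.9 and 44.7 CPM with PGE2. It had 33.2, 29.5, 44.2 and 34.7 CPM in stimulated untreated cells and 20.4, 19.7, 31.5 and 34.1 CPM in stimulated PGE2 cells. All 4 PGE2 replicates were lower than their untreated counterparts in both states, without overlap of the groups in unstimulated cells only. Bbc3 fell by 0.49 with PGE2 in unstimulated cells (SE 0.11, adjusted p = 0.0054). In stimulated cells its log2 fold change was -0.42 (SE 0.19, adjusted p = 0.2, edgeR), and it passed with the block (adjusted p = 0.0033). Stimulation changed Bbc3 by -0.92 (SE 0.13, adjusted p = 4e-05) and, under PGE2, by -0.81 (SE 0.17, adjusted p = 0.0014). Thus Bcl2l11 and Bbc3 moved in the same direction with stimulation and in opposite directions with PGE2 in unstimulated cells.

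Pmaip1, whose protein mainly binds MCL1 and A1, had 25.4, 22.3, 27.0 and 29.2 CPM in unstimulated untreated cells and 14.4, 18.9, 21.2 and 24.0 CPM with PGE2. In stimulated cells it had 19.6, 21.0, 26.2 and 28.5 CPM without PGE2 and 15.7, 16.7, 21.7 and 23.9 CPM with it. The groups overlapped, but each PGE2 replicate was lower than the untreated replicate of its number in both states. The log2 fold changes of -0.38 (SE 0.15, adjusted p = 0.08) and -0.28 (SE 0.17, adjusted p = 0.29) did not pass in edgeR's unpaired fit. Both passed with the replicate block, at -0.38 (SE 0.082, adjusted p = 0.00093) and -0.29 (SE 0.056, adjusted p = 0.0022). Stimulation gave -0.14 (SE 0.12, adjusted p = 0.31) without PGE2 and 0.00 (SE 0.17, adjusted p = 0.99) with it, so no change was detected.

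Of the effectors, Bax (chr7:45461697-45466898, minus strand) varied little between replicates. It had 118, 116, 116 and 113 CPM in unstimulated untreated cells and 95.5, 88.6, 93.2 and 89.2 CPM with PGE2. It had 136, 130, 131 and 118 CPM in stimulated untreated cells and 114, 107, 105 and 104 CPM in stimulated PGE2 cells. The PGE2 samples lay below all untreated ones in both states. Bax fell by 0.32 on the log2 scale in unstimulated cells (SE 0.048, adjusted p = 0.00055) and by 0.25 in stimulated cells (SE 0.065, adjusted p = 0.037). The second call was lost in 6 of the 8 fits that left out a sample, with adjusted p up to 0.13. With stimulation the log2 fold change of Bax was 0.14 (SE 0.070, adjusted p = 0.096, and 0.047 with the block) without PGE2 and 0.25 (SE 0.066, adjusted p = 0.0068) with it. Upper-quartile scaling moved the median of all genes in the latter comparison from 0.0022 to -0.13, and Bax then had 0.12 (adjusted p = 0.084). Without the low-count filter it had 0.19 (adjusted p = 0.081).

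Bak1 (chr17:27019810-27029009, minus strand), the other pore-forming gene, stayed between 71.4 and 89.4 CPM in all 16 samples. Its log2 fold changes were 0.08 (SE 0.059), 0.12 (SE 0.068), 0.06 (SE 0.071) and 0.15 (SE 0.069) for PGE2 without and with beads and for stimulation without and with PGE2. None passed, with adjusted p of 0.38, 0.28, 0.44 and 0.079 in edgeR. Of its exon bases, 18.2% lie opposite those of Ggnbp1, which had a mean of 1.75 CPM, and the use of strand in counting is not given in the sources used here.

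**Figure D2:**
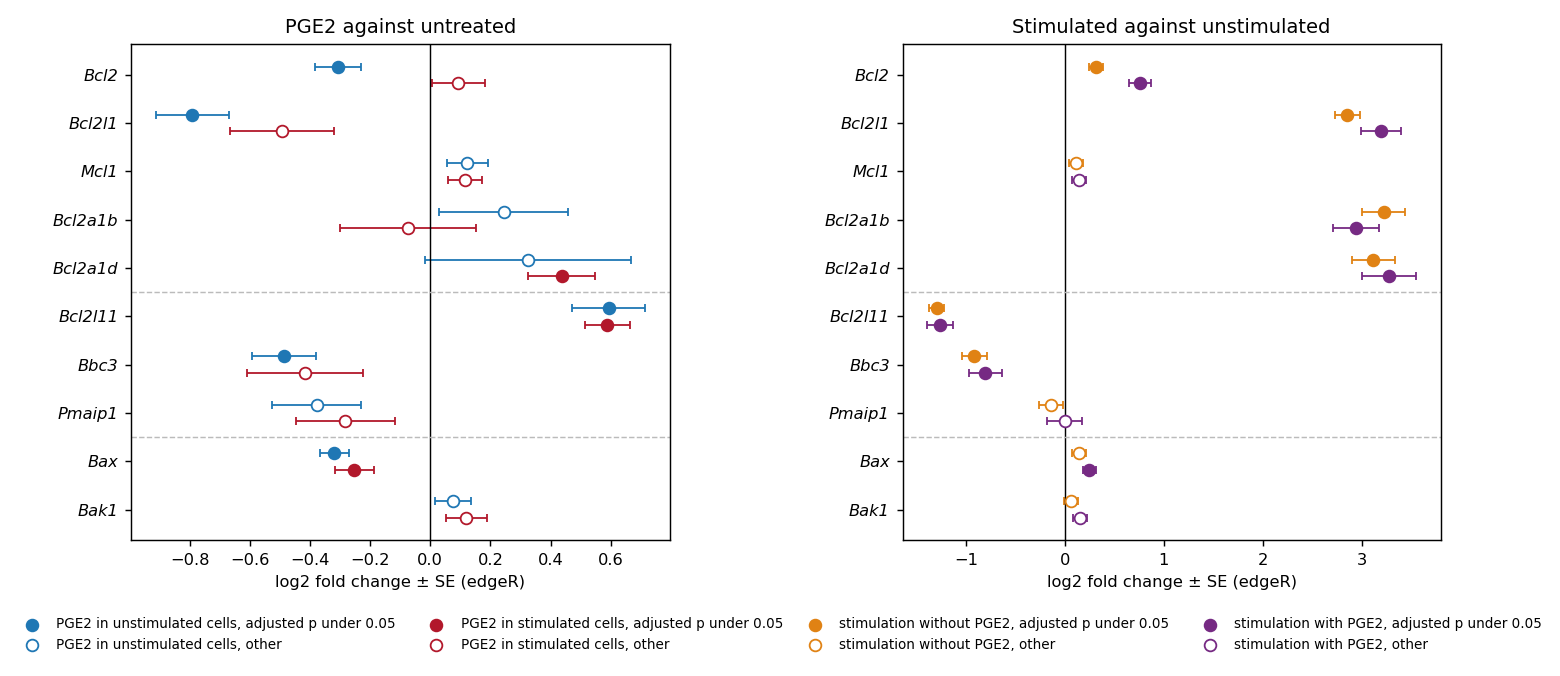
Log2 fold change ± SE (x axis) of each gene (y axis, grouped as anti-apoptotic, BH3-only and effector by the dashed lines) for PGE2 against untreated (left) and stimulated against unstimulated (right). Filled symbols have an adjusted p under 0.05 in edgeR's unpaired fit and open symbols do not. The left panel spans -0.79 to 0.59 and the right panel -1.30 to 3.28.

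Counted over the family, PGE2 moved 5 of 10 genes in unstimulated cells, 1 up (Bcl2l11) and 4 down (Bcl2, Bcl2l1, Bbc3 and Bax), where 28.4% of all genes tested were called, 12.9% up and 15.5% down. In stimulated cells 3 of 10 passed, 2 up (Bcl2l11 and Bcl2a1d) and 1 down (Bax), against 9.84% of all genes, 6.04% up and 3.8% down. DESeq2 called 5 and 4 of the 10, the fourth in stimulated cells being Bcl2l1. With the replicate block, which raised calls among all genes as well, 8 and 7 of the 10 passed. The call of 2-fold or more was met by 0 of the 10 in either state in edgeR and in DESeq2, against 3.38% and 1.75% of all genes. Without beads 4 of the 10 genes had PGE2 and untreated samples that did not overlap, against 28.8% of all genes, and with beads 3 did, against 17.9%. The median log2 fold change of the 10 genes was -0.12 in unstimulated and 0.01 in stimulated cells, beside medians near 0 for all genes (-0.0010 and -0.0061).

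Stimulation without PGE2 moved 6 of 10 genes, 4 up and 2 down, against 66.5% of all genes tested (31.7% up and 34.8% down), so the share of members was near the background. At least 2-fold changes were found for 4 of the 10 (Bcl2l1, Bcl2a1b, Bcl2a1d and Bcl2l11), against 23.2% of all genes. With PGE2 7 of 10 moved, 5 up and 2 down, against 64.2% (32.5% up and 31.7% down), and the same 4 genes were past 2-fold, against 22.1%. The groups did not overlap for 6 and 7 of the 10 genes, against 61.6% and 60.2% of all genes. None of the 10 passed the test of the difference between the PGE2 responses with and without beads (1, Bcl2, had an unadjusted p under 0.05 in edgeR and 1 in DESeq2), where 0.749% of all genes were called.

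Levels of different genes were compared in FPKM, the authors' fragments per kilobase of gene and depth of sequencing, which take gene length into account. In unstimulated untreated cells the order ran from Mcl1 (106 FPKM) through Bax (70.0), Bcl2 (37.6), Bbc3 (29.6), Bak1 (29.5), Bcl2l11 (27.1), Bcl2l1 (12.9), Pmaip1 (9.33) and Bcl2a1d (5.18) to Bcl2a1b (2.67). Neighbours in this order had ranges that did not overlap, except Bbc3 with Bak1 and Bak1 with Bcl2l11. With PGE2 and no beads, Bcl2l11 (41.0 FPKM) stood behind Mcl1 (115) and Bax (56.0), though its range overlapped that of Bak1 (31.0). In stimulated untreated cells Bcl2l1 (94.1 FPKM) came next to Mcl1 (115) and their ranges overlapped, whereas Bcl2l11 (11.1) and Pmaip1 (8.55) were lowest. In stimulated PGE2 cells Bcl2l1 (66.4), Bax (64.9) and Bcl2a1d (62.3) followed Mcl1 (124) with ranges that overlapped their neighbour's.

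**Figure D3:**
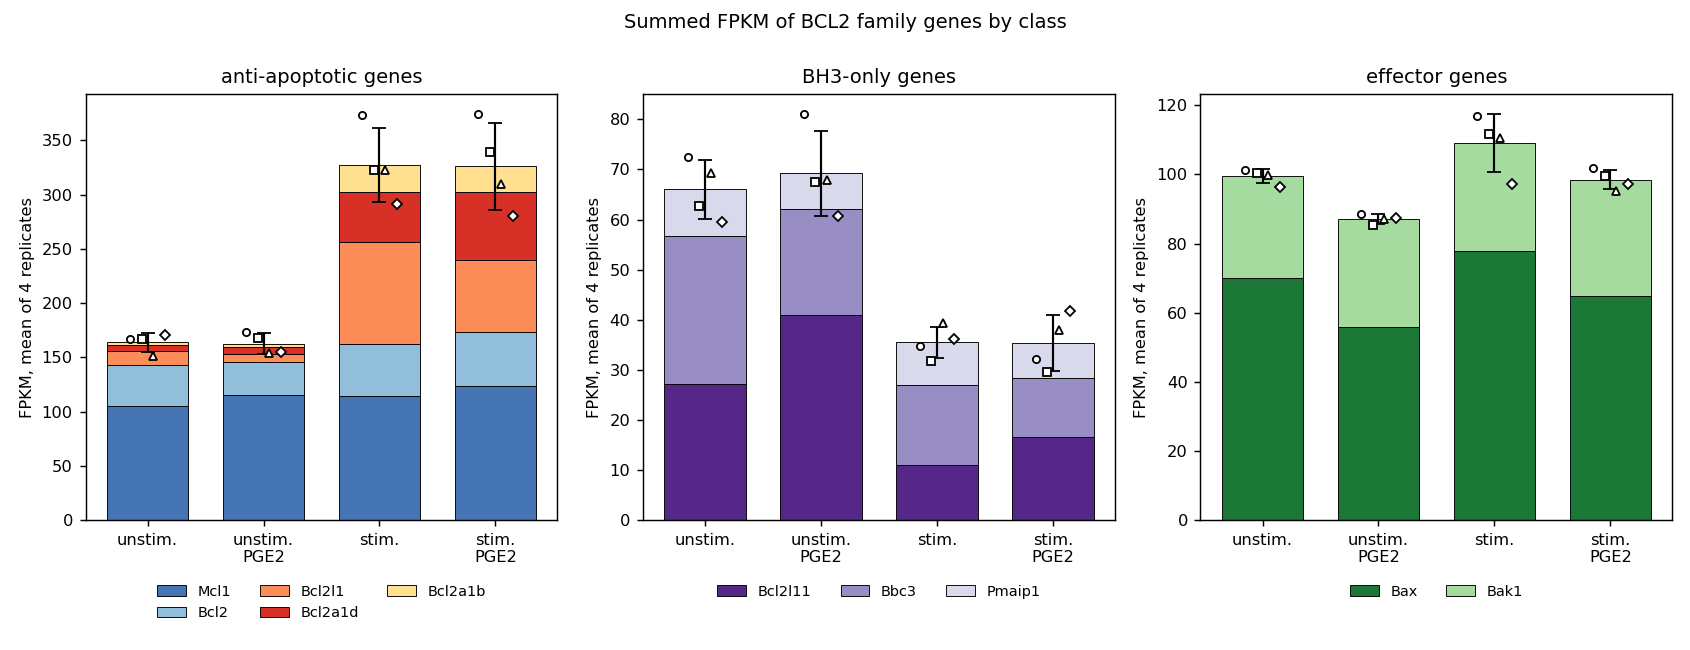
Mean FPKM of the anti-apoptotic, BH3-only and effector genes (y axes, from 0, each panel with its own scale), stacked by gene, in the 4 groups (x axis). Error bars are the SD of the 4 summed replicate values, which are drawn as open symbols. The anti-apoptotic stack rises from 164 to 328 FPKM with stimulation, and the BH3-only stack goes from 66.0 to 35.5 FPKM.

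Summed FPKM of the 5 anti-apoptotic genes was 164 ± 8.502 (SD, n = 4) in unstimulated untreated, 162 ± 9.67 in unstimulated PGE2, 328 ± 33.9 in stimulated untreated and 326 ± 40.0 in stimulated PGE2 cells. The stimulated samples, at 280.5 to 374 FPKM, lay above the unstimulated ones, at 152 to 174 FPKM, and PGE2 and untreated samples overlapped in both states. Within these overlapping sums the make-up differed. Mcl1 held 64.4% ± 2.64 of the sum in unstimulated untreated and 70.7% ± 2.30 in unstimulated PGE2 cells, but 35.2% ± 1.76 and 38.2% ± 3.57 in stimulated untreated and PGE2 cells. Bcl2l1 held 7.84% and 4.6% before and 28.6% and 20.1% after stimulation, and Bcl2a1d 3.16% and 4.07% before and 14.1% and 19.1% after. In stimulated cells the Bcl2l1 share was lower with PGE2 (15.7% to 22.6% against 26.6% to 29.4%) and the Bcl2a1d share higher (18.3% to 19.8% against 13.03% to 15.3%), without overlap.

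The 3 BH3-only genes summed to 66.0 ± 5.91 FPKM in unstimulated untreated and 69.2 ± 8.52 in unstimulated PGE2 cells, and to 35.5 ± 3.10 and 35.4 ± 5.51 after stimulation. Here too the sum overlapped between PGE2 and untreated samples, while the shares of Bcl2l11 and Bbc3 did not. The Pmaip1 share overlapped in unstimulated cells (12.6% to 17.6% untreated against 6.47% to 14.3% with PGE2). Bcl2l11 held 41.1% ± 1.82 of the sum without PGE2 and 58.7% ± 6.36 with PGE2 in unstimulated cells, and 31.5% ± 3.94 and 47.4% ± 5.13 in stimulated cells. Bbc3 went the other way, from 44.6% to 30.7% and from 44.4% to 32.9%. The effector sum was 99.5 ± 2.12 FPKM in unstimulated untreated and 87.0 ± 1.35 in unstimulated PGE2 cells, whose samples did not overlap. In stimulated cells it was 109 ± 8.35 FPKM untreated and 98.5 ± 2.83 with PGE2, and these samples overlapped. Bax held 70.4% ± 0.538 and 64.4% ± 2.01 of the sum in the unstimulated groups, and 71.4% ± 0.637 and 65.8% ± 1.90 in the stimulated ones. Sums and shares are descriptions of RNA and carry no test.

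**Figure D4:**
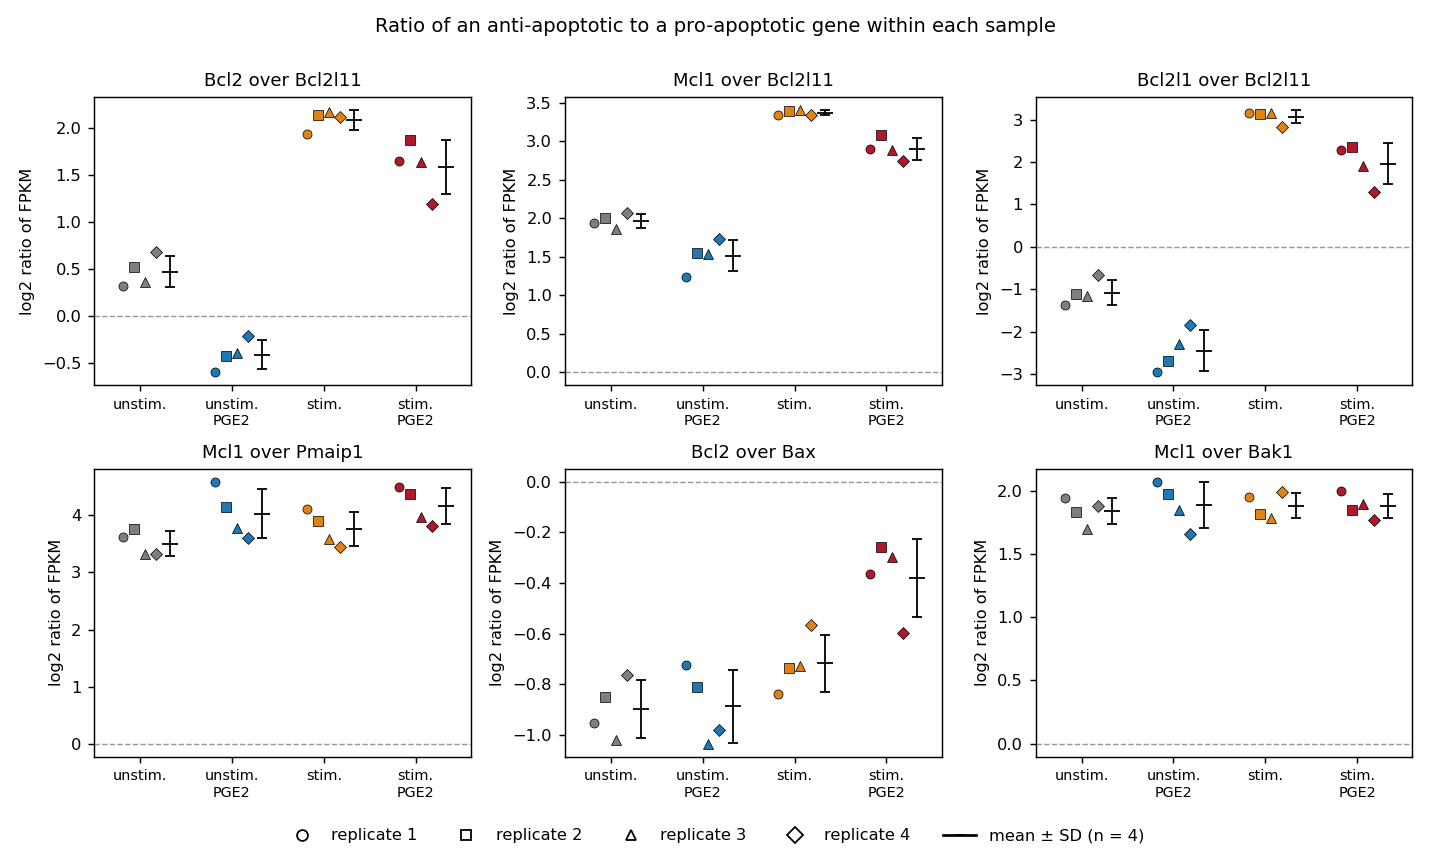
Log2 ratio of FPKM between an anti-apoptotic and a pro-apoptotic gene (y axis, dashed line at 0 where the levels are equal) in each sample of the 4 groups (x axis). Symbols are replicates 1 to 4 and the bar is the mean ± SD (n = 4). In the upper row, which holds the 3 ratios over Bcl2l11, each group stands apart from the group it was compared with. These 3 ratios share Bcl2l11, whose own groups did not overlap in any comparison, so they are not separate results.

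Ratios within a sample were taken for 6 pairs, each an anti-apoptotic gene over a pro-apoptotic one. Bcl2 over Bcl2l11 had log2 values of 0.32, 0.53, 0.36 and 0.68 in unstimulated untreated samples and -0.60, -0.43, -0.40 and -0.21 in unstimulated PGE2 samples. In stimulated samples it was 1.93, 2.14, 2.17 and 2.11 without PGE2 and 1.65, 1.88, 1.64 and 1.19 with it. BIM transcripts thus exceeded BCL2 transcripts per length in the 4 unstimulated PGE2 samples and in no other sample. The mean fell by 0.88 with PGE2 in unstimulated cells and by 0.50 in stimulated cells, without overlap.

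Bcl2l1 over Bcl2l11 was the pair with the largest span of the 6. Its mean log2 ratio was -1.08 ± 0.296 (SD, n = 4) in unstimulated untreated and -2.45 ± 0.482 in unstimulated PGE2 cells, which are ratios of 0.472 and 0.183. After stimulation it was 3.07 ± 0.156 without PGE2 and 1.96 ± 0.489 with PGE2, or 8.41 and 3.89. The PGE2 samples lay below all untreated samples in both states, by 1.37 and 1.11 on the log2 scale of means. Mcl1 over Bcl2l11 had means of 1.96 and 1.51 in unstimulated and 3.37 and 2.90 in stimulated cells, untreated and PGE2, also without overlap. With PGE2 and beads together, these 3 ratios stayed above those of unstimulated untreated cells in each sample. The 3 ratios share Bcl2l11 and are not independent of its own change.

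The 3 pairs without Bcl2l11 overlapped between groups, except Bcl2 over Bax for stimulation with PGE2. Mcl1 over Pmaip1 had means of 3.51 and 4.03 in unstimulated and 3.76 and 4.16 in stimulated cells, and each PGE2 replicate was higher than its untreated counterpart, although the groups overlapped. Bcl2 over Bax had -0.90 and -0.89 in unstimulated and -0.72 and -0.38 in stimulated cells, and overlapped between PGE2 and untreated samples. Mcl1 over Bak1 stayed between 1.66 and 2.07 in all 16 samples.

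Promoters were compared because several members moved together. RefSeq's windows (GRCm38.p6) were found for 9 of the 10 genes, with 14 windows in all, and the 250 bases before each start were searched on both strands for short motifs. Shown are Bcl2l11, the member that rose with PGE2 in both states, and the pair Bcl2a1b and Bcl2a1d, which rose with stimulation in both treatment states. Capitals mark a FOXO site (TGTTTAC, first in the Bcl2l11 window and read on the other strand), EGR sites (GCGNGGGCG) and AP-1 sites (TGANTCA). The 2 Bcl2a1 windows are cut where the first exon of GENCODE M21 begins.
Bcl2l11, chr2:128125788-128126037, plus strand: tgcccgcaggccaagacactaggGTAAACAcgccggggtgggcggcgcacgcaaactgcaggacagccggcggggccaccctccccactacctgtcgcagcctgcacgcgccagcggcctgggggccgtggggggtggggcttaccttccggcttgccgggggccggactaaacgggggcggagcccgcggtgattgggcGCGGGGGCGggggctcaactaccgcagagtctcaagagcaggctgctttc
Bcl2a1b, chr9:89199023-89199208, plus strand: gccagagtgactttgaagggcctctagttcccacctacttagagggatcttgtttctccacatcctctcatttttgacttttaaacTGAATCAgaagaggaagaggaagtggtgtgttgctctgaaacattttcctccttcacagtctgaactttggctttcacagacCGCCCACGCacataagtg
Bcl2a1d, chr9:88731915-88732100, minus strand: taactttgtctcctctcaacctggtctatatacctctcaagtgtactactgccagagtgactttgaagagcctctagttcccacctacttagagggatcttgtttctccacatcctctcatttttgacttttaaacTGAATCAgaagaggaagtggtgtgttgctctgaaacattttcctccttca
The FOXO site lay 227 to 221 bases before the start that belongs to the Bcl2l11 window shown. Another Bcl2l11 window (chr2:128127325-128127574), not shown, held none of the motifs searched for. The 2 AP-1 sites lay 164 to 158 bases before the start of Bcl2a1b and 114 to 108 bases before that of Bcl2a1d.

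Of 32817 mouse windows of this length, 3.16% held the FOXO site (among members Bcl2l11 and Bbc3), 6.75% the AP-1 site (Bcl2a1b and Bcl2a1d) and 4.70% the EGR site (Bbc3, Bcl2a1b, Bcl2a1d and Bcl2l11). The E-box CACGTG was in 6.02% of windows (Bax and Bbc3). The cAMP response element TGACGTCA was in 1.55% and in no member window, while TGACG, which is part of it, was in 17.7% (Bcl2, Bbc3, Bcl2a1b and Bcl2a1d). In Bcl2a1d the EGR match (38 to 30 bases before the start) and TGACG (22 to 18 bases) lie past the cut, in the GENCODE M21 exon. In Bcl2a1b TGACG (66 to 62 bases before the start) crosses the cut. Neither the STAT motif TTCNNNGAA (7.01%) nor the NF-kB motif GGGANTTTC (0.942%) was in a member window. The shares are per window, whereas a member is named if any of its windows held the motif. A match is a run of letters, and these data do not measure binding.

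The other genes of the pathway were counted from lists set by their known roles. Of 15 further BCL2 family genes, 10 could be tested for PGE2 in unstimulated cells. Of these 10, 3 rose and 1 fell, where 12.9% of all genes rose and 15.5% fell. The 3 that rose included Bcl2l2 (log2 fold change 0.47, SE 0.12, adjusted p = 0.011) and Bnip3l (0.43, SE 0.072, adjusted p = 0.0011). The one that fell was Bid, the BH3-only gene that links death receptors to mitochondria, from 23.1, 25.0, 22.2 and 24.4 CPM in untreated to 11.5, 10.7, 9.66 and 10.99 CPM in PGE2 samples, a log2 fold change of -1.12 (SE 0.077, adjusted p = 4.9e-06). Bid was the largest PGE2 change of the family and the only one past 2-fold among these 10 and the 10 members. In stimulated cells it had 67.9, 72.6, 62.0 and 53.7 CPM without and 61.2, 60.9, 49.3 and 40.3 CPM with PGE2, a log2 fold change of -0.27 (SE 0.14, adjusted p = 0.24). The PGE2 responses of Bid with and without beads differed by 0.87 (SE 0.17, adjusted p = 0.022, edgeR), with an adjusted p of 0.0023 to 0.29 over the alternatives.

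None of 10 such genes passed for PGE2 in stimulated cells in edgeR, with 3 at an unadjusted p under 0.05, while 4 of the 10 passed with the replicate block and 1 (Bmf) of the 14 that DESeq2 tested. There Bmf, a BH3-only gene with a role close to that of BIM, had 0.77 (SE 0.25, adjusted p = 0.08). Stimulation without PGE2 raised 1 and lowered 5 of 9, and with PGE2 it raised 3 and lowered 4 of 11, shares near those of all genes (66.5% and 64.2% called). Bmf fell by 2.62 (SE 0.15, adjusted p = 2.7e-08) and, with PGE2, by 2.00 (SE 0.21, adjusted p = 1.3e-05), whereas Bid rose by 1.42 (SE 0.10, adjusted p = 1.2e-07) and 2.32 (SE 0.14, adjusted p = 1.2e-06). BH3-only genes therefore went both ways with stimulation. Bnip3l, which acts in the removal of mitochondria, fell by 0.96 (SE 0.12, adjusted p = 1.1e-05) without and by 0.85 (SE 0.14, adjusted p = 0.00026) with PGE2. Bcl2l10 had no count, and Hrk, Bok and Bcl2l15 had at most 14 counts in a sample and did not pass the low-count filter of the edgeR fits.

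**Figure D5:**
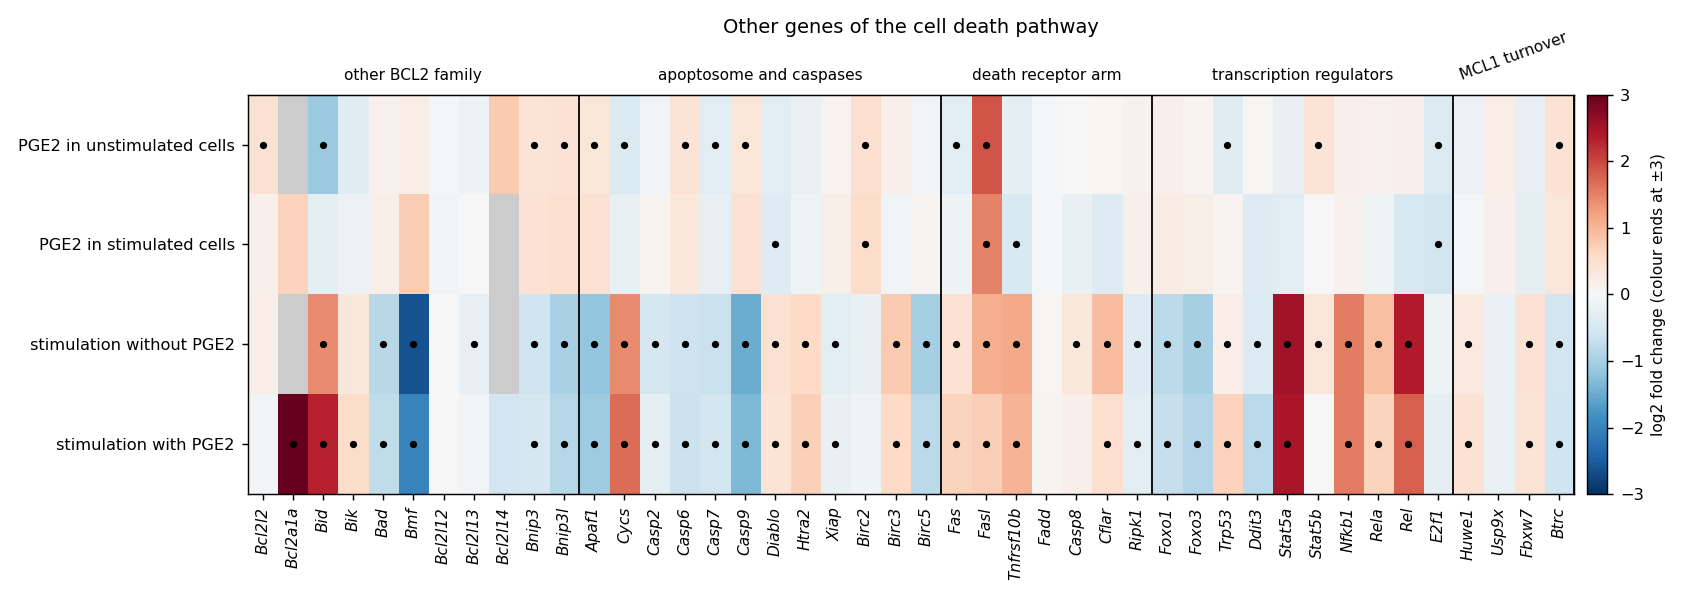
Log2 fold change (colour, red higher and blue lower, ends at ±3) of other genes of the pathway (x axis, grouped by list) in the 4 comparisons (y axis). Black dots mark an adjusted p under 0.05 and grey cells were not tested. Fasl is the red cell in both PGE2 rows, at 1.88 and 1.49, and Stat5a, Rel and Nfkb1 are red in both stimulation rows.

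Downstream of the mitochondria, 13 genes of the apoptosome, the caspases and their inhibitors were all tested. With stimulation 5 rose and 7 fell, both without and with PGE2, where 66.5% and 64.2% of all genes were called. Casp9 (log2 fold change -1.49, SE 0.11, adjusted p = 1.7e-07, without PGE2) and Apaf1 (-1.19, SE 0.12, adjusted p = 1.6e-06), which form the apoptosome, fell, while Cycs, which encodes cytochrome c, rose by 1.41 (SE 0.11, adjusted p = 2.2e-07). PGE2 raised 4 and lowered 2 of the 13 in unstimulated cells, against 28.4% of all genes called, and raised 1 and lowered 2 in stimulated cells, against 9.84%. The 4 raised without beads were Birc2, Casp6 (0.40, SE 0.083, adjusted p = 0.0039), Apaf1 (0.37, SE 0.059, adjusted p = 0.00074) and Casp9 (0.36, SE 0.076, adjusted p = 0.0046), of which Casp6, Apaf1 and Casp9 were named after their values had been seen. Birc2, which encodes an inhibitor of apoptosis protein, rose with PGE2 in both states. It rose by 0.51 (SE 0.11, adjusted p = 0.0058) in unstimulated and by 0.55 (SE 0.15, adjusted p = 0.048) in stimulated cells. Cycs was 1 of the 2 lowered by PGE2 without beads, at -0.44 (SE 0.094, adjusted p = 0.0045). Diablo was 1 of the 2 lowered with beads, at -0.39 (SE 0.11, adjusted p = 0.048).

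Of 7 death receptor genes, PGE2 raised 1 and lowered 1 in each state. Of all genes, 28.4% were called without beads and 9.84% with them. The one lowered was Fas without beads (log2 fold change -0.34, SE 0.081, adjusted p = 0.0094) and Tnfrsf10b with beads (-0.45, SE 0.067, adjusted p = 0.0033). The one raised was Fasl, the ligand of the receptor FAS, from 2.82 to 5.48 CPM to 11.98 to 16.1 CPM in unstimulated cells (1.88, SE 0.20, adjusted p = 5.3e-05) and from 6.62 to 12.7 CPM to 20.4 to 28.0 CPM in stimulated cells (1.49, SE 0.20, adjusted p = 0.0019). Stimulation raised 5 and lowered 1 of the 7 without PGE2, and raised 4 and lowered 1 with it, against 66.5% and 64.2% of all genes called. Of 4 regulators of MCL1 protein turnover, 2 rose and 1 fell with stimulation in either treatment state, all by less than 2-fold, and PGE2 changed 1 in unstimulated cells (Btrc, 0.44, SE 0.069, adjusted p = 0.00067). In stimulated cells PGE2 changed 0 of the 4 in edgeR, with 1 at an unadjusted p under 0.05, 0 in DESeq2 and 3 with the block.

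Among 10 known regulators of transcription of the members, stimulation without PGE2 raised 6 and lowered 3, where 66.5% of all genes were called, and with PGE2 it raised 5 and lowered 3, against 64.2%. Stat5a, which carries IL-2 signals, rose by 2.53 (SE 0.12, adjusted p = 1.3e-08), Rel by 2.37 (SE 0.11, adjusted p = 1.4e-08) and Nfkb1 by 1.53 (SE 0.10, adjusted p = 7e-08). Foxo1 and Foxo3, whose proteins drive Bcl2l11 and Bbc3, fell by 0.80 (SE 0.072, adjusted p = 7.8e-07) and 1.00 (SE 0.085, adjusted p = 5.4e-07). PGE2 raised 1 of the 10 (Stat5b) and lowered 2 (Trp53 and E2f1) in unstimulated cells, against 28.4% of all genes called, and lowered 1 (E2f1) in stimulated cells, against 9.84%. Foxo1 and Foxo3 did not pass with PGE2 in either state (0.15, 0.21, 0.09 and 0.16 on the log2 scale, adjusted p of 0.062 to 0.46). Trp53, which encodes p53, fell by 0.37 (SE 0.058, adjusted p = 0.00065) with PGE2 in unstimulated cells and had 0.08 (SE 0.073, adjusted p = 0.52) in stimulated cells, and these differed by 0.46 (SE 0.097, adjusted p = 0.035, with 0.0028 to 0.15 over the alternatives). Foxo1 and Foxo3 were singled out after their values had been seen.

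The genes whose levels followed each member most closely were found by Pearson correlation of log2 CPM over the 16 samples among 8869 genes. Bcl2l1 was closest to Eif4e (r = 0.997) and Tomm40 (0.997), Bcl2a1d to Gpr65 (0.992) and Myo10 (0.991), Bcl2l11 to BC005537 (0.991) and Klhdc2 (0.991), and Bcl2a1b to Rcn1 (0.987) and Errfi1 (0.985). Bax was closest to Lrmp (0.972) and Snd1 (0.971), Bbc3 to Aes (0.970) and Pycard (0.967), and Bcl2 to Fig4 (0.959) and Sec31a (0.957). Pmaip1 (St14, 0.948, and Guf1, 0.923), Mcl1 (Becn1, 0.912, and Plcxd2, 0.899) and Bak1 (Tapbpl, 0.796, and Tfe3, 0.788) had lower values. The 16 samples share 4 groups and these values largely follow the group means, so they are given as descriptions only.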

How the data were processed

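Poly(A) RNA of 16 samples was sequenced in read pairs. The authors aligned reads with HISAT2 2.0.5 to GRCm38 (mm10), counted reads per gene with featureCounts 1.5.0-p3 and deposited the raw read counts. The deposited FPKM values were computed by the authors from gene length and count. Which annotation release was counted, how, and whether by strand is not given in the sources used here.

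Counts were tested with edgeR 4.0.16 (R 4.3.3) by quasi-likelihood after a low-count filter (filterByExpr, minimum 10) and TMM scaling, with Benjamini-Hochberg adjustment over all genes, a threshold of 0.05 and, for large changes, 2-fold. The 4 pairwise comparisons used 8 samples each and the interaction used 16. CPM used library sizes scaled by TMM, and FPKM served for levels between genes and for limma. DESeq2 1.42.0, limma 3.58.1, other scalings and filters, a replicate block and fits without each sample were the alternatives. The sum of the Bcl2a1 copies was added after seeing the data. Scripts were tested on simulated data.

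Deviations of same-numbered samples correlated in both PGE2 comparisons (r = 0.14 to 0.44) and in stimulation without PGE2 (0.11 to 0.36). There the fit with the replicate block was read as a paired test. The main fits and their counts of calls were unpaired in all comparisons. For stimulation with PGE2 r was 0.044 to 0.28, and numbers were not taken as pairs. The line between these is not sharp. Replicate 2 was closer to a sample of another number for stimulation with PGE2 (0.044 against 0.070) and for PGE2 in stimulated cells (0.19 against 0.21). The labels do not say what a number shares. The members and lists were chosen with earlier results of these data known. Named genes were the members, up to 3 called genes per list and comparison with the largest change, and the 2 genes most like each member with a mean of at least 10 CPM. A gene of the lists is not reported here by name. Samples held 22678254 to 42950763 counts.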

Additional observations from a re-analysis of the deposited data

Results flagged for a closer look

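In 64 groups of 4 samples checked for a sample far from the others, 3 stood apart, and chance gives about 1 in 20. Stimulated untreated replicate 1 had 438 CPM of Mcl1, above the 402 to 405 CPM of the other replicates. The same sample had 32.4 CPM of Bcl2a1b, against 16.9 to 18.6 CPM in the others, and without it the log2 fold change of Bcl2a1b for PGE2 in stimulated cells was 0.21 in place of -0.07. Stimulated untreated replicate 4 had a log2 ratio of Bcl2l1 over Bcl2l11 of 2.84, below the 3.14 to 3.16 of the others. Bid responded to PGE2 differently with and without beads by the interaction test, with a difference of 0.87 on the log2 scale. It missed the threshold in 9 of 25 alternatives. Trp53 also differed, by 0.46, and missed the threshold in 17 of 25 alternatives. The cause was not tested for any of these.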

How the results depend on the processing

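With the replicate block, 8 of the 10 genes passed for PGE2 in unstimulated cells and 7 in stimulated cells, in place of 5 and 3, while calls among all genes went from 4122 to 6938 and from 1370 to 5544. In stimulated cells 1 gene (Bcl2l11) passed under limma on log2(FPKM + 1), on log2(FPKM + 0.1) and on log2(FPKM + 1) without a filter. Numbers were not taken as pairs for stimulation with PGE2 or for the interaction. Under the block Bak1 passed in the former (adjusted p = 0.047), and calls over all genes in the latter went from 113 to 408. Without 1 sample at a time, 4 to 6, 1 to 3, 6 to 7, 7 to 8 and 0 to 1 genes passed for PGE2 without and with beads, for stimulation without and with PGE2 and for the interaction. The count was 1 for PGE2 with beads without stimulated untreated replicate 2 or 3 or stimulated PGE2 replicate 2 or 3, and 1 (Bcl2) for the interaction without stimulated PGE2 replicate 4.

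No value that changed sign was called. Bak1 had -0.032 for stimulation without PGE2 under upper-quartile scaling, and Pmaip1 had 0.0067 for stimulation with PGE2 under the block. The interaction of Mcl1 was -0.015 in DESeq2, -0.015 with RLE factors, -0.010 with upper-quartile factors, -0.030 without a filter and -0.013 in the 3 limma fits. That of Bcl2l11 was -0.017, -0.016, -0.0039 and -0.028 in the same 4 settings and -0.018 in both limma fits on log2(FPKM + 1). Without 1 sample at a time, Bcl2a1b ranged from -0.25 to 0.21 for PGE2 with beads and Pmaip1 from -0.16 to 0.11 for stimulation with PGE2. The interaction then ranged from -0.045 to 0.047 for Mcl1, -0.11 to 0.15 for Bcl2l11, -0.15 to 0.39 for Bcl2a1d, -0.014 to 0.22 for Pmaip1 and -0.067 to 0.21 for Bbc3. The cause was not tested. Ratios from counts per kilobase are the same as those from FPKM by construction. The units differ by a factor shared by all genes of a sample, which cancels, so this was no separate check. RNA levels do not show protein, and Bcl2a1b and Bcl2a1d had under 9 CPM in unstimulated cells, which limits their PGE2 comparison there.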
